A study of Caenorhabditis elegans with 92 samples.

Results

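KLE-2 is a subunit of condensin II, and its binding was compared between 2 peak lists made by ChIP-seq (sequencing of DNA fragments that come down with an antibody): one from sdc-2 mutant embryos and one from wild-type embryos of the nematode Caenorhabditis elegans. The mutant list, pooled from 2 ChIP libraries, held 201 peaks. The wild-type list, pooled from 3 ChIP libraries, held 1474. Together they make up 1675 of the 20438 peaks in the 17 lists of the series. A wild-type peak was called kept where it shared at least 1 bp with a mutant KLE-2 peak and lost where it shared none, and a mutant peak was called new where it shared no base with a wild-type KLE-2 peak. The mutant strain, TY1072, carries her-1(e1520) on V and sdc-2(y74), a null allele, on the X. It is tetraploid and genetically male, so that each nucleus has 4 copies of every autosome but 2 of the X. The wild type was strain N2, a diploid hermaphrodite strain. Both were collected as mixed stage embryos and fixed with 2% formaldehyde for 30 minutes. Ploidy, sex and the her-1 allele differ together with sdc-2 between the strains, and their parts in any difference cannot be told apart.

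Condensins are ring-shaped protein complexes that extrude and compact DNA. Condensin II carries the subunits KLE-2, HCP-6 and CAPG-2 on a pair of SMC ATPases, MIX-1 and SMC-4. Condensin I pairs the same ATPases with DPY-26, DPY-28 and CAPG-1, and condensin IDC, the form found in the worm's dosage compensation complex, has DPY-27 in place of SMC-4. SDC-2 is the hermaphrodite-specific protein that brings condensin IDC to the X, where the complex lowers transcription from both hermaphrodite X chromosomes. SCC-2, also called PQN-85, is the subunit of the factor that loads cohesin onto DNA, and AMA-1 is the large subunit of RNA polymerase II. The comparison asks where KLE-2 stays on the genome when SDC-2 is absent.

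The libraries behind both KLE-2 lists differed in more than genotype. The mutant list rests on 2 libraries, both made with antibody SDQ3942, while the wild-type list rests on 2 libraries made with SDQ3942 and 1 made with SDQ3898. By the study's own list of libraries the mutant list also drew on fewer mapped reads. A pooled list carries no value per library and no depth, so the parts of depth, antibody and genotype in the length of the mutant list cannot be told apart, and a lost peak is one absent from the list, not a place shown to be free of KLE-2.

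The mutant list was much shorter on all chromosomes. It held 24 peaks on the X and 177 on the autosomes, while the wild-type list held 236 on the X and 1238 on the autosomes. Of the wild-type peaks, 183 were kept, 12.4% of the list (95% exact binomial interval 10.8 to 14.2%), and 1291 were lost. On the X 24 of 236 were kept, 10.2% (6.63 to 14.8%), and on the autosomes 159 of 1238, 12.8% (11 to 14.8%). These intervals overlap, so that over all peaks no difference between the X and the autosomes was detectable at this number of peaks. Among single autosomes the kept share was lowest on II, at 9.48% (22 of 232), and highest on I, at 14.7% (40 of 272), and the X lay between them. The X took 11.9% of the mutant list (7.80 to 17.2%) and 16.0% of the wild-type list (14.2 to 18%), again with overlapping intervals. By length, the mutant list had 1.35 peaks per Mb on the X and 2.15 on the autosomes, while the wild-type list had 13.3 per Mb on the X and 15.0 on the autosomes. Each list is 1 pooled value per genotype, so no test across replicates can be made. The intervals cover counting error only, and neighbouring peaks are not independent.

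**Figure D1:**
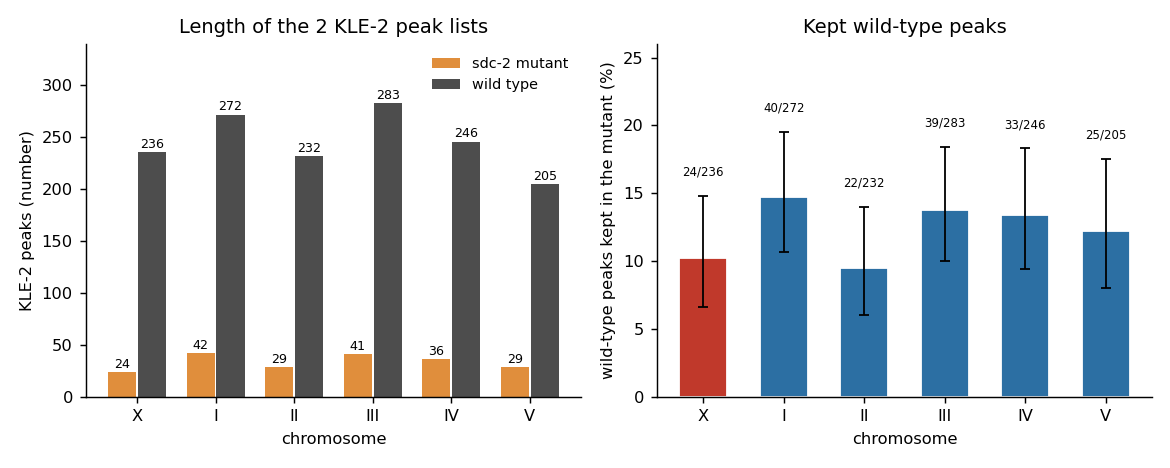
Number of KLE-2 peaks per chromosome in the sdc-2 mutant list and the wild-type list (left), and the percentage of wild-type peaks kept in the mutant with exact 95% binomial intervals, which cover counting error only (right). Numbers over the right bars are kept peaks over wild-type peaks. The kept share runs between 9.48% on II and 14.7% on I, with the X at 10.2%.

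Almost every mutant peak lay at a place that was listed in the wild type. Of the 201 mutant peaks, 191 overlapped a wild-type KLE-2 peak and 10 were new, 4.98% (2.41 to 8.96%). All 24 mutant peaks on the X overlapped a wild-type peak, and a count of 0 new peaks there allows a share of up to 14.2%. On the autosomes 10 of 177 were new. Chromosome III, with 41 mutant peaks, also had none. By bases, 94.4% of the 284 kb in mutant peaks fell inside wild-type peaks, which took up 2497 kb. The threshold of 1 bp decided little. The shortest stretch shared by a pair was 756 bp, the new peak nearest to a wild-type peak was 5942 bp away from it, and 3 of the 1291 lost peaks lay within 500 bp of a mutant peak.

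Whether a wild-type peak was kept went with its score. The score is minus 10 times the log10 of the peak caller's p-value, it starts at about 100 in these lists, and it stops at a ceiling of 3100. Kept peaks on the X had a median score of 2245 in the wild-type list, at the 88.7th percentile, and lost peaks on the X had 535, at the 47.5th percentile. On the autosomes kept peaks had a median of 2706 and lost peaks 485. The wild-type list was divided by score into 4 groups of 368 or 369 peaks. In the lowest group 0 of 54 X peaks were kept, which allows up to 5.56%, and 5 of 315 autosomal peaks. In the highest group 18 of 67 X peaks were kept, 26.9% (16.8 to 39.1%), and 127 of 302 autosomal peaks, 42.1% (36.4 to 47.8%).

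At the top of the list the X and the autosomes parted. Of the wild-type peaks at the score ceiling, 11 of 25 were kept on the X, 44.0% (24.4 to 65.1%), and 71 of 86 on the autosomes, 82.6% (72.9 to 89.9%). These intervals do not overlap. The difference was not tested across replicates. Within the highest score group but below the ceiling, 7 of 42 X peaks were kept, 16.7% (6.97 to 31.4%), and 56 of 216 autosomal peaks, 25.9% (20.2 to 32.3%), with overlapping intervals. In the 3 lower groups the intervals of the X and the autosomes overlapped too. The mutant has fewer copies of the X than of each autosome, and the part of this in the difference was not tested. When an autosomal mutant peak was counted only if its score times 0.5 still reached the lowest score of the mutant list, 63 of the 86 autosomal peaks at the ceiling were kept, 73.3% (62.6 to 82.2%), and this interval overlaps that of the X. Such a factor can only lower the autosomal share, and how a score changes with the amount of DNA is not known from the lists. The score ceiling also hides how far the strongest peaks of the X and of the autosomes differ in strength.

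**Figure D2:**
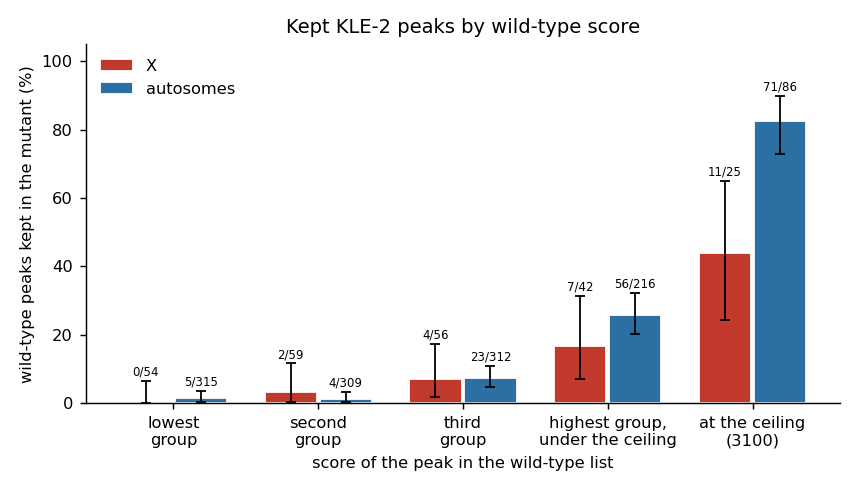
Percentage of wild-type KLE-2 peaks kept in the sdc-2 mutant, for X and autosomal peaks grouped by their score in the wild-type list, with exact 95% binomial intervals. Counts above the bars are kept peaks over wild-type peaks. At the ceiling of 3100 the share is 44.0% on the X and 82.6% on the autosomes, and in the lowest group it is at or near 0 on both.

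On the X 14 lost peaks shared the ceiling score of 3100 in the wild-type list. The 5 widest of these are named here (coordinates here and below are for genome version WS220). They were chrX:16610916-16613406, chrX:4207626-4209939, chrX:1445415-1447560, chrX:6295124-6297212 and chrX:14525078-14526805, with widths of 1728 to 2491 bp. Over all 1474 wild-type KLE-2 peaks, 67.2% overlapped a wild-type peak of HCP-6, 38.6% of CAPG-2, 41.2% of SMC-4, 51.3% of SCC-2 and 32.8% of AMA-1. Of the condensin I and IDC subunits, CAPG-1 was at 19.6%, DPY-28 at 17.4%, DPY-26 at 17%, DPY-27 at 15.5% and MIX-1, which all condensins share, at 36.5%. All 5 of the named lost X peaks carried HCP-6, CAPG-2, SMC-4 and SCC-2, and all 5 of these condensin I and IDC subunits as well. KLE-2 was also listed at all 5 in wild-type L3 larvae, whose list covered 72.5% of all wild-type KLE-2 peaks. AMA-1 had a peak at 4 of the 5 named peaks, all but chrX:14525078-14526805. Most X peaks of the same score shared these traits. Of the 25 X peaks at the ceiling, kept or lost, 21 overlapped HCP-6 and 21 overlapped each of these condensin I and IDC subunits. SMC-4 and SCC-2 were each at 19 of the 25, CAPG-2 at 18, AMA-1 at 9 and KLE-2 in L3 larvae at 24. In the mutant, SCC-2 was still listed at chrX:16610916-16613406 and chrX:1445415-1447560. The peaks at chrX:6295124-6297212 and chrX:14525078-14526805 also overlapped a peak of the IgG control, as 1.36% of all wild-type KLE-2 peaks did.

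The 5 X peaks with the strongest mutant signal formed a more mixed set. The highest mutant score on the X, 2659, was at chrX:2057401-2059532 (2132 bp), a peak at the ceiling in the wild type that overlapped none of the HCP-6, CAPG-2, SMC-4, SCC-2 and AMA-1 lists and, of the condensin I and IDC subunits, only DPY-27. In the mutant both SCC-2 and DPY-26 were listed there. The peak at chrX:4221923-4223793 followed with a mutant score of 1591, then chrX:1374687-1375860 with 909, chrX:11603042-11607090 with 895 and chrX:13396109-13397246 with 800. The peak at chrX:1374687-1375860 overlapped HCP-6 but no subunit of condensin I or IDC, while chrX:11603042-11607090 carried all 5 of the compared proteins and was the only kept X peak with a mutant HCP-6 peak. The other 19 kept X peaks had mutant scores between 133 and 443. No X peak reached the ceiling in the mutant list.

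On the autosomes the strongest kept peaks reached the ceiling in both lists. These were chrII:11756832-11762004 (5173 bp), chrIV:2754346-2757453 (3108 bp) and chrIV:15058763-15059966 (1204 bp). The next were chrI:14685987-14687807, with a mutant score of 2961, and chrIV:15570303-15571536, with 2928. The peak on II carried all 5 compared proteins, overlapped an IgG peak and was listed for HCP-6, SCC-2 and DPY-26 in the mutant too. Both strongest peaks on IV overlapped none of the 5 wild-type lists but were listed for KLE-2 in L3 larvae and for SCC-2 and DPY-26 in the mutant. Of the lost autosomal peaks 15 shared the ceiling score of 3100. The 5 widest of these were chrIII:1936219-1940643, chrV:9543434-9547592, chrI:13650826-13654584, chrIII:7940410-7943295 and chrV:8888747-8891204. All 5 had a KLE-2 peak in L3 larvae, as 84 of the 86 autosomal peaks at the ceiling did. The 5 named lost peaks overlapped between 1 and 5 of the compared proteins, and the pair on V, which carried all 5, still had an SCC-2 peak in the mutant.

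Mutant peaks were called narrower than the wild-type peaks they fell in. The lists differ in libraries, antibody and depth as well as genotype, and the parts of these in peak width cannot be told apart. Mutant peaks on the X had a median width of 1096 bp and wild-type X peaks 1340 bp, and on the autosomes the medians were 1201 bp in the mutant and 1340 bp in the wild type. In the 191 overlapping pairs the mutant peak was the narrower in 189, with a median ratio of 0.669, and it lay wholly inside the wild-type peak in 187. Centres were a median of 97.5 bp apart, and in 43 pairs they were more than 500 bp apart. Kept wild-type peaks were wider than lost ones. On the X the medians were 1617 bp for kept and 1323 bp for lost peaks, and on the autosomes 1915 bp and 1271 bp for kept and lost peaks in that order. With the wild-type peaks divided by width into 4 groups in the same way, 5 of 366 in the narrowest group were kept, 1.37% (0.445 to 3.16%), and 91 of 370 in the widest, 24.6% (20.3 to 29.3%). On the autosomes 0.610% of peaks were kept in the narrowest group (0.0739 to 2.19%) and 24.8% in the widest (20.3 to 29.9%). On the X the shares from narrowest to widest were 7.89% (1.66 to 21.4%), 6.25%, 8.97% and 22.5% (10.8 to 38.5%), all with overlapping intervals. Kept peaks also had higher scores, a wider peak has more bases to share, and widths were not compared within score groups. A wide kept peak could hold several mutant peaks. This was so for 6 wild-type peaks, all autosomal. The widest, chrII:13815531-13829123, was 13593 bp long with a score of only 100, and the mutant peak of greatest width, 4413 bp at chrII:13824450-13828862, lay within it. Across the 191 pairs the scores of the wild-type and mutant peaks had a Spearman correlation of 0.42, and of 0.16 over the 104 pairs with the wild-type peak below the ceiling. These pairs share the same libraries, and the values are given as a description.

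**Figure D3:**
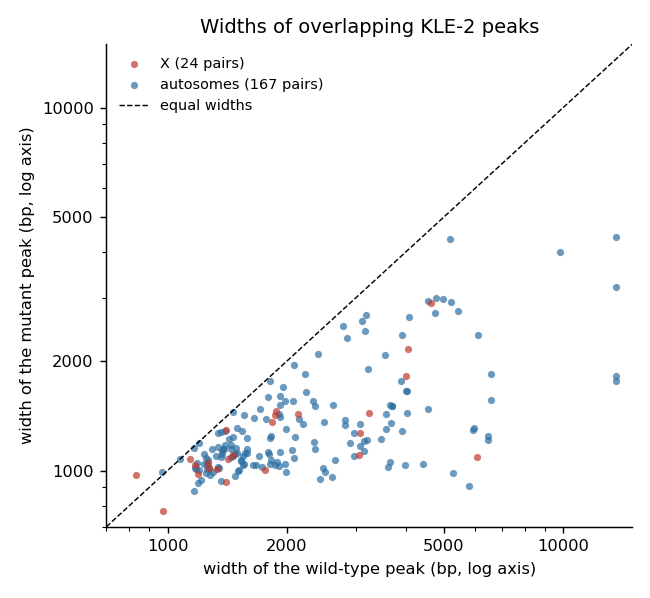
Width of the mutant peak against the width of the overlapping wild-type KLE-2 peak, both in bp on log axes, 1 point per pair. The dashed line marks equal widths, and 189 of the 191 points lie below it. The median ratio of mutant to wild-type width is 0.754 for the 24 X pairs and 0.664 for the 167 autosomal pairs.

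Kept and lost autosomal peaks differed in the other proteins found on them. In the mutant list, 79.1% of the 201 peaks overlapped a wild-type peak of HCP-6, 63.7% of CAPG-2, 69.2% of SMC-4, 68.7% of SCC-2 and 53.7% of AMA-1, shares above those of the wild-type list given before. On the autosomes SMC-4 was at 74.2% of kept peaks (66.7 to 80.8%) and 30.2% of lost peaks (27.5 to 33.1%). CAPG-2, a condensin II partner of KLE-2, was at 67.9% of kept peaks (60.1 to 75.1%) and 33.7% of lost peaks (30.9 to 36.6%). HCP-6, the other partner, was at 83.0% of kept and 63.0% of lost peaks. The loader SCC-2 was at 73.0% of kept and 43.9% of lost peaks, and AMA-1 at 57.9% of kept and 31.3% of lost peaks. For all 5 proteins the autosomal intervals of kept and lost peaks did not overlap.

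On the X no such gap was seen for the condensin and loader lists. SMC-4 was at 62.5% of kept X peaks (40.6 to 81.2%, 15 of 24) and 69.8% of lost X peaks (63.1 to 75.9%, 148 of 212). For SCC-2 the values were 62.5% of kept and 71.2% of lost peaks, for HCP-6 70.8% of kept and 76.4% of lost peaks, and for CAPG-2 50.0% of kept and 40.1% of lost peaks. All of these intervals overlapped. AMA-1 was at 41.7% of kept X peaks (22.1 to 63.4%) and 20.8% of lost X peaks (15.5 to 26.8%), with intervals that overlapped in part. With 24 kept X peaks, differences of moderate size were not detectable.

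**Figure D4:**
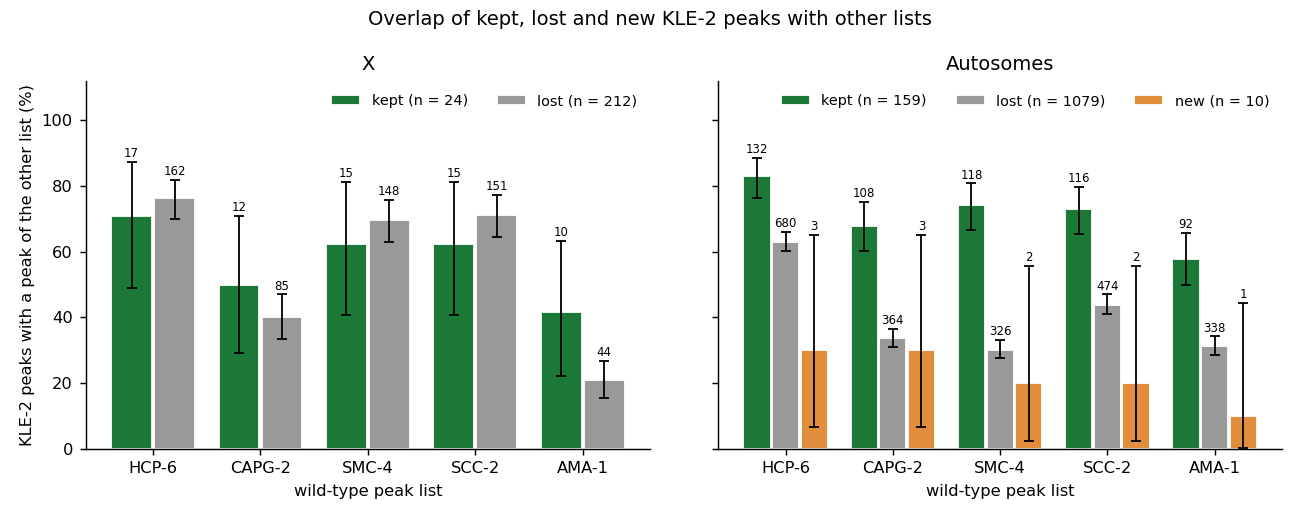
Percentage of kept, lost and new KLE-2 peaks that share at least 1 bp with a wild-type peak of HCP-6, CAPG-2, SMC-4, SCC-2 or AMA-1, on the X (left) and the autosomes (right), with exact 95% binomial intervals; the number over each bar is its count of peaks. On the autosomes kept peaks are above lost peaks for all 5 lists (SMC-4 at 74.2% of kept and 30.2% of lost peaks), while on the X the bars of kept and lost peaks have overlapping intervals.

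Strong peaks overlap more lists than weak ones, so the comparison was repeated within the highest of the 4 score groups. There the autosomal gap narrowed. SMC-4 was at 76.4% of 127 kept peaks (68.0 to 83.5%) and 64.6% of 175 lost peaks (57.0 to 71.6%), HCP-6 at 86.6% of kept and 82.9% of lost peaks, and SCC-2 at 77.2% of kept and 68.6% of lost peaks, all with overlapping intervals. AMA-1 kept separate intervals, at 60.6% of kept peaks (51.6 to 69.2%) and 41.1% of lost peaks (33.8 to 48.8%). The group still spans a range of scores, with a median of 2304 for autosomal peaks with AMA-1 and 1898 without. At the ceiling alone 45 of 52 autosomal peaks with AMA-1 were kept, 86.5% (74.2 to 94.4%). Without AMA-1 26 of 34 were kept, 76.5% (58.8 to 89.3%), with overlapping intervals. On the X lost peaks of the highest score group had the higher shares of HCP-6, CAPG-2, SMC-4 and SCC-2. HCP-6 was at 13 of 18 kept peaks, 72.2% (46.5 to 90.3%), and 48 of 49 lost peaks, 98.0% (89.1 to 99.9%). SMC-4 was at 61.1% of kept peaks (35.7 to 82.7%) and 93.9% of lost peaks (83.1 to 98.7%), SCC-2 at 61.1% of kept and 91.8% of lost peaks (80.4 to 97.7%), and CAPG-2 at 55.6% of kept and 77.6% of lost peaks. For SMC-4 these intervals do not overlap, and for the other 3 they overlap.

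The X peaks also differed in whether condensin I or IDC was bound in the wild type. A condensin I-IDC site was taken as any stretch covered by at least 2 of the DPY-26, DPY-28 and CAPG-1 lists, which gave 1653 sites, 1605 of them on the X. This split was chosen after the values had been seen. Over the whole wild-type KLE-2 list 17.6% of peaks overlapped such a site. Lost X peaks did so in 206 of 212 cases, 97.2% (93.9 to 99.0%), and kept X peaks in 14 of 24, 58.3% (36.6 to 77.9%). Read the other way, 14 of 220 X peaks with a site were kept, 6.36% (3.52 to 10.4%), and 10 of 16 without a site, 62.5% (35.4 to 84.8%). Strong peaks showed the difference as well. In the highest score group 12 of 61 X peaks with a site were kept, 19.7% (10.6 to 31.8%), and 6 of 6 without a site (54.1 to 100%). Each single subunit was also at a smaller share of kept than of lost X peaks, with DPY-26 at 54.2% of kept and 95.3% of lost X peaks, DPY-28 at 58.3% and 95.8% in that order, CAPG-1 at 70.8% and 99.5%, and DPY-27 at 62.5% and 92.9%. With the DPY-27 list in place of the sites, 15 of 212 X peaks with DPY-27 were kept, 7.08% (4.01 to 11.4%), and 9 of 24 without it, 37.5% (18.8 to 59.4%). MIX-1, the SMC partner in these complexes, was at 62.5% of kept and 97.2% of lost X peaks.

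Autosomal peaks showed the reverse. Autosomal KLE-2 peaks with a condensin I-IDC site were few, 39 of 1238, and 25 of them were kept, 64.1% (47.2 to 78.8%), compared with 134 of 1199 without a site, 11.2% (9.45 to 13.1%). The 39 peaks were also strong, with a median score of 3100, at the ceiling, against 543 for those without. In the highest score group 23 of 30 with a site were kept, 76.7% (57.7 to 90.1%), and 104 of 272 without, 38.2% (32.4 to 44.3%), and these intervals do not overlap. At the ceiling alone 17 of 20 with a site were kept, 85.0% (62.1 to 96.8%), and 54 of 66 without, 81.8% (70.4 to 90.2%), with overlapping intervals. At the same ceiling 7 of 21 X peaks with a site were kept, 33.3% (14.6 to 57.0%), below the interval for autosomal peaks with a site. Of the X peaks without a site 4 of 4 were kept (39.8 to 100%), and this interval overlaps that of X peaks with a site. Removing wild-type and mutant peaks that overlap the IgG list left the share kept at 10.3% on the X and 12.3% on the autosomes.

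**Figure D5:**
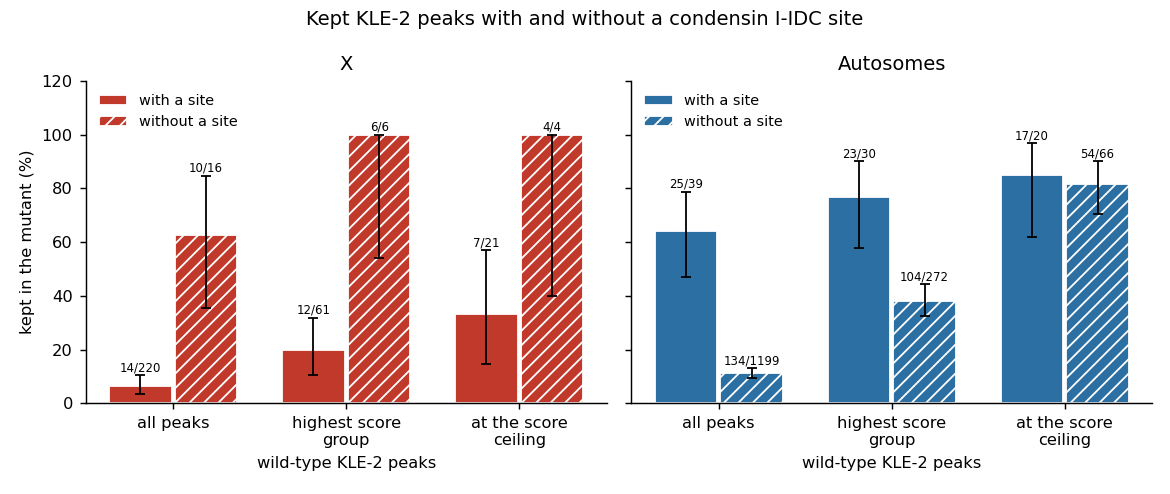
Percentage of wild-type KLE-2 peaks kept in the sdc-2 mutant, with and without an overlapping condensin I-IDC site, for all peaks, the highest score group and peaks at the score ceiling, on the X (left) and the autosomes (right). Bars carry exact 95% binomial intervals and counts. Of all X peaks 6.36% with a site and 62.5% without one were kept, and of all autosomal peaks 64.1% with a site and 11.2% without.

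Only 6 X peaks of the wild-type list overlapped none of the lists of DPY-27 and the 3 non-SMC subunits of condensin I, and all 6 were kept. These peaks, singled out after their values were seen, were chrX:330616-331589, chrX:442832-444254, chrX:1374687-1375860, chrX:2002314-2003649, chrX:13794953-13795782 and chrX:17287699-17289163. Their wild-type scores were 3100 at the first, second and last of these, and 1675, 944 and 313 at the others. In the mutant their scores were 194, 410, 909, 334, 312 and 313, in the same order. The peak at chrX:13794953-13795782 was the narrowest kept X peak. A score depends on the depth of its list, so these values rank peaks within a list and are not compared between the strains. HCP-6 was at 2 of the 6, SCC-2 at 1, and SMC-4 and AMA-1 at none. KLE-2 was listed in L3 larvae at 5, all but chrX:17287699-17289163, which overlapped no other list at all. Far more X peaks had all of these subunits. Of the 203 X peaks with all 4 subunits 12 were kept, 5.91% (3.09 to 10.1%).

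The kept share varied with the number of compared proteins on a peak. Of the wild-type KLE-2 peaks that overlapped none of HCP-6, CAPG-2, SMC-4, SCC-2 and AMA-1, 28 of 271 were kept, 10.3% (6.98 to 14.6%). The share over the whole wild-type list, 12.4%, lies within this interval. With 1 list the share was 2.90% (1.26 to 5.63%), with 2 lists 3.57%, with 3 lists 7.23%, with 4 lists 18% and with all 5 lists 42.6% (35.2 to 50.3%). Scores differed too, with a median of 355 at none of the lists and 1580 at all 5. The 28 kept peaks with none of the 5 were strong. Their median wild-type score was 2124, and 12 were at the ceiling, while the 243 lost peaks with none of the 5 had a median of 321. In the mutant the 28 had a median score of 412, and the other 155 kept peaks 278. Of the 28, 26 were listed for KLE-2 in L3 larvae, 3 had an SCC-2 peak and 3 a DPY-26 peak in the mutant, and none overlapped the IgG list. Among the 155 others an SCC-2 peak was present in the mutant at 121.

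The strongest peaks of the mutant list were more often at none of the 5 lists than weaker ones. Of the 23 mutant peaks with a score of 1000 or more, a limit chosen after seeing the list, 11 overlapped none of the 5 wild-type lists, 47.8% (26.8 to 69.4%), while of the 178 weaker mutant peaks 23 did, 12.9% (8.37 to 18.8%). All 5 lists were at 6 of the 23, 26.1% (10.2 to 48.4%), and at 71 of the 178 weaker peaks, 39.9% (32.6 to 47.5%), with overlapping intervals. All but 1 of the 23 had a KLE-2 peak in L3 larvae. The exception was the strongest new peak.

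New peaks were weak, with 1 exception. The 10 new peaks had a median score of 179, against 304 for the 191 mutant peaks that matched a wild-type peak. Their median width was 1188 bp in both cases. The peak at chrII:246143-248790, 2648 bp wide, had a score of 3100 in the mutant and overlapped no other list of the series. The others ran between 106 and 271. The next 4 by score were chrII:10548302-10549913 with a score of 271, chrV:18721756-18725627 with 237, chrIV:7440624-7441364 with 194 and chrV:12272219-12273587 with 191. SCC-2 had a peak in the mutant at the first 2 of these. HCP-6 and CAPG-2 each had a wild-type peak at 3 of the 10 new peaks, 30.0% (6.67 to 65.2%), SMC-4 and SCC-2 at 2 each, and AMA-1 at 1. Of the 10, 5 overlapped none of these lists, and 4 were listed for KLE-2 in L3 larvae. On II 4 of 29 mutant peaks were new, 13.8% (3.89 to 31.7%), and on V 3 of 29, 10.3% (2.19 to 27.4%). The share over the whole mutant list, 4.98%, lies within both intervals.

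Kept peaks were largely shared with the larval stage. Peaks of the L3 list were at 90.5% of the mutant KLE-2 peaks. On the X they were at 83.3% of kept peaks (62.6 to 95.3%) and 50.5% of lost peaks (43.5 to 57.4%). On the autosomes they were at 95% of kept peaks (90.3 to 97.8%) and 73.2% of lost peaks (70.5 to 75.8%). Within the highest score group the X values were 88.9% of kept and 91.8% of lost peaks, with overlapping intervals, and the autosomal values 97.6% of kept (93.3 to 99.5%) and 91.4% of lost peaks (86.3 to 95.1%).

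The other proteins profiled in the same mutant differed in how often they were listed at kept KLE-2 peaks. Over all 183 kept peaks a mutant peak of SCC-2 was at 67.8%, of DPY-26 at 37.7% and of HCP-6 at 7.65%. An SCC-2 mutant peak was at 62.5% of kept X peaks (40.6 to 81.2%) and 20.3% of lost X peaks (15.1 to 26.3%), and at 68.6% of kept and 10.2% of lost autosomal peaks. Within the highest score group the X values were 61.1% of kept (35.7 to 82.7%) and 38.8% of lost peaks (25.2 to 53.8%), with overlapping intervals, and the autosomal values 70.9% of kept (62.1 to 78.6%) and 30.9% of lost peaks (24.1 to 38.3%). The share over all wild-type KLE-2 peaks was 18.8%. At X peaks that carried SCC-2 in the wild type, SCC-2 was still listed in the mutant at 13 of 15 kept peaks and 41 of 151 lost peaks, 27.2% (20.2 to 35.0%). DPY-26 peaks of the mutant fell almost wholly on KLE-2. Of the 88, 70 overlapped a mutant KLE-2 peak, 79.5% (69.6 to 87.4%), and 87 a wild-type KLE-2 peak. Over all wild-type KLE-2 peaks 5.77% had one. They were at 25% of kept and 0.943% of lost X peaks, and at 39.6% of kept and 1.30% of lost autosomal peaks. Among the peaks of the highest score group they were at 27.8% of kept (9.69 to 53.5%) and 4.08% of lost X peaks (0.498 to 14%), with overlapping intervals, and at 44.1% of kept (35.3 to 53.2%) and 5.71% of lost autosomal peaks (2.77 to 10.3%). The mutant HCP-6 list held only 45 peaks, of which 14 overlapped a mutant KLE-2 peak and 32 a wild-type KLE-2 peak. It covered 2.17% of all wild-type KLE-2 peaks. It was found at 8.18% of kept autosomal peaks (4.43 to 13.6%) and 1.67% of lost autosomal peaks (0.992 to 2.62%). Within the highest score group 11 of 17 autosomal peaks with a mutant HCP-6 peak were kept, 64.7% (38.3 to 85.8%). Without one 116 of 285 were kept, 40.7% (34.9 to 46.7%), with overlapping intervals.

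The lists of these proteins were in total also shorter in the mutant, but the autosomal part of the DPY-26 list was longer. HCP-6 had 45 mutant and 1677 wild-type peaks, SCC-2 had 315 mutant and 1167 wild-type peaks, and DPY-26 had 88 mutant and 2420 wild-type peaks. The lists pooled 2 mutant and 4 wild-type libraries for HCP-6, 3 and 3 for SCC-2, and 2 and 5 for DPY-26. The part of library number in these list lengths was not tested. On the autosomes DPY-26 had 80 mutant peaks, 63 of them new, and 44 wild-type peaks. On the X 20.2% of wild-type SCC-2 peaks (15.8 to 25.2%), 10.2% of KLE-2 peaks, 0.329% of HCP-6 peaks (0.00833 to 1.82%) and 0.210% of DPY-26 peaks (0.0684 to 0.490%) were kept. On the autosomes the shares were 25.1% for SCC-2 (22.2 to 28.1%), 12.8% for KLE-2, 2.99% for HCP-6 (2.15 to 4.03%) and 38.6% for DPY-26 (17 of 44, 24.4 to 54.5%). Over all peaks the X and autosomal intervals did not overlap for HCP-6 and DPY-26, and they overlapped for KLE-2 and SCC-2. At the score ceiling SCC-2 kept 4 of 21 X peaks, 19% (5.45 to 41.9%), and 22 of 22 autosomal peaks (84.6 to 100%). HCP-6 kept 1 of 20 X peaks and 37 of 90 autosomal peaks, 41.1% (30.8 to 52.0%), at the ceiling. For KLE-2, HCP-6 and SCC-2 the X share at the ceiling was below the autosomal share, with intervals that did not overlap. All of these mutant lists come from the strain with fewer copies of the X than of each autosome, and the part of this was not tested. With autosomal mutant scores times 0.5 the KLE-2 intervals at the ceiling overlapped, and this factor was applied to KLE-2 alone.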

How the data were processed

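Reads were aligned by the authors to the C. elegans genome WS220 with Bowtie 0.12.7, the replicates of a group were pooled, and peaks were called with MACS at the p-value limit that a score of 100 stands for. Peaks present in the majority of single replicates were retained in the deposited lists. The deposited score of a peak is minus 10 times the log10 of its p-value, and replicates cannot be separated. For coverage tracks the authors handled X and autosomal reads of the mutant apart; whether this held for peaks is not given in the sources used here.

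Starts were made 1-based, and overlap of at least 1 bp was computed in Python 3.11.15 with numpy 2.4.6 and pandas 2.3.3. The code was tested on simulated peaks against bedtools 2.31.1. Exact (Clopper-Pearson) 95% intervals came from scipy 1.17.1. For a count of 0 the upper end of the exact interval was given as the limit. Score groups are 4 equal parts of the wild-type list, and ranks are mid ranks. No test was run, since each group is 1 pooled list. Regions were named by score: on the X and on autosomes, the 5 strongest lost and new peaks and the 5 kept peaks with the strongest mutant peak. Ties in score were broken by the greater width. Alternatives covered the overlap rule, score limits, X dose, merging, other condensin II lists, IgG and L3. Groups follow the labels of the ChIP libraries. RNA-seq values have no positions in the files and were not used. Genes near peaks and sequences were not analysed here. The members and lists were chosen with earlier results of these data known.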

Additional observations from a re-analysis of the deposited data

How the results depend on the processing

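No paired analysis was possible because each list pools its replicates, and for the same reason no replicate could be left out. Of 125 values under another setting, for 31 results, 81 fell inside the 95% interval of the value reported and 44 outside it. The cause of these moves was not tested. Only counting limits the intervals, and the depth of a list is not known from it. Settings on IgG, L3, the score ceiling and condensin I-IDC were chosen after seeing the data. The share of wild-type peaks kept, 12.4% in all, 10.2% on the X and 12.8% on the autosomes, was 6.51%, 4.66% and 6.87% with mutant peaks at or above their median score, and 23.3%, 17.9% and 24.4% with wild-type peaks at or above theirs. With the wild-type list held to its 201 strongest peaks it was 56.7% in all, 35.9% on the X (14 of 39) and 61.7% on the autosomes (100 of 162). At the score ceiling it was 73.9%, 44.0% and 82.6%, and with autosomal mutant scores also multiplied by 0.5 it was 66.7%, 44.0% and 73.3%. With that factor alone it was 9.36% in all and 9.21% on the autosomes, below the 10.2% of the X. Among wild-type peaks with HCP-6 or CAPG-2 it was 14.3% in all and 15.3% on the autosomes, and among those also in L3 it was 16.0% in all, 15.7% on the X and 16.0% on the autosomes. The X took 19.4% of the 201 strongest wild-type peaks. New peaks, 4.98% of the mutant list, made up 18.9% when the centre of a wild-type peak had to lie in the mutant peak, 0.990% with mutant peaks at or above the median, 11.9% with wild-type peaks at or above theirs and 2.04% with the factor of 0.5. With only the stronger peaks of the other list (at or above its median), HCP-6 was at 74.3% of kept and 40.7% of lost peaks, CAPG-2 at 51.9% of kept and 17.6% of lost, SMC-4 at 63.9% of kept and 18.2% of lost, SCC-2 at 63.9% of kept and 26.6% of lost, and AMA-1 at 22.4% of lost peaks. AMA-1 was at 26.6% of lost peaks when 50% of the shorter peak had to be shared and at 34.5% with a gap of up to 500 bp. X peaks with a condensin I-IDC site were kept at 19.7% in the highest score group and 33.3% at the ceiling. X peaks without one were kept at 100% in both of these sets, 6 of 6 (54.1 to 100%) and 4 of 4 (39.8 to 100%) in that order. At the ceiling the intervals with and without a site overlap. Without a site, the share was 100% (6 of 6) with no overlap of any of the 4 subunit lists and 87.5% (7 of 8) with none of the CAPG-1 list. It was 37.5% (9 of 24, 18.8 to 59.4%) with none of the DPY-27 list, lower than the reported 62.5%.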

Other observations

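Kept peaks were spread along the chromosomes. With the X divided into 3 equal stretches from its left end, 10 of 85 wild-type KLE-2 peaks were kept in the left stretch, 4 of 59 in the middle and 10 of 92 in the right, and the intervals of these shares overlapped. On the autosomes 9.98% of peaks were kept in the left stretches (7.31 to 13.2%), 12.4% in the middle and 16.5% in the right (12.9 to 20.6%).

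The IgG list was short, with 23 peaks. Of the 20 wild-type KLE-2 peaks that overlapped the IgG list, 9 were at the score ceiling and 9 were kept, 45.0% (23.1 to 68.5%), all 9 of them autosomal. Over the whole wild-type list 111 of 1474 peaks were at the ceiling and 12.4% were kept. An IgG peak was at 4.92% of kept peaks (2.27 to 9.13%) and 0.852% of lost peaks (0.426 to 1.52%). Within the highest score group it was at 5.52% of kept (2.41 to 10.6%) and 3.12% of lost peaks (1.27 to 6.33%), with overlapping intervals.

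The peak caller's own numbers, carried in the peak names, ran up to 285 in the mutant KLE-2 list and up to 2079 in the wild-type list, so that 70.5% of the numbers were listed in the mutant and 70.9% in the wild type. In the mutant SCC-2 list 90.8% were listed.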
